A study of Mus musculus with 26 samples.

Results

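The genes described here carry the insulin signal in the hepatocyte and set the balance between glucose production and glucose breakdown. They were chosen by symbol as 9 genes: the insulin receptor gene Insr, the adaptor genes Irs1 and Irs2, the transcription factor gene Foxo1, the coactivator gene Ppargc1a, the secreted binding protein gene Igfbp1, the gluconeogenic enzyme genes Pck1 and Fbp1, and Pklr, which encodes pyruvate kinase of liver and red cells. All 9 were found among the 55401 genes of the deposited count table, and all 9 were among the 16238 genes that passed the filter on low counts. Liver RNA was sequenced from male C57BL/6 mice kept on a high-fat diet, to which the series design adds high cholesterol, from 4 weeks of age for 18 weeks. The group given UCMSC-Exos, exosomes from UCMSCs injected into the tail vein every 72 hours for 8 weeks, had 8 libraries. The untreated HFD group, on the same diet with no injection listed, had 9 libraries. Another group of 9 samples, given a nanotherapeutic named LSCR, was not analysed here. The effect of exosomes therefore cannot be told apart from that of repeated injection, or of a cage or cohort shared by a group. The labels give neither the feeding state nor the time of day at which livers were taken.

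Insulin binds its receptor, a tyrosine kinase, which phosphorylates the IRS adaptor proteins and through them switches on the kinase AKT. In hepatocytes AKT phosphorylates FOXO1 and sends it out of the nucleus, so that genes driven by FOXO1, among them Igfbp1, Pck1 and Irs2, are transcribed less after a meal and more in fasting. Glucagon works in the opposite direction through cAMP and CREB, which raise Pck1 and the coactivator PGC-1alpha encoded by Ppargc1a. Pklr, at the last step of glycolysis, is raised by glucose through the factor ChREBP. On build mm10, as the deposited annotation gives them, Insr lies at chr8:3122061-3279617, Irs1 at chr1:82233101-82291416, Irs2 at chr8:10984681-11008458, Ppargc1a at chr5:51454250-51567726 and Fbp1 at chr13:62864753-62888282, all on the minus strand. On the plus strand lie Foxo1 at chr3:52268336-52353221, Igfbp1 at chr11:7197782-7202546, Pck1 at chr2:173153048-173159273 and Pklr at chr3:89136142-89146784. Counts are summed over all exons of a gene, so start sites and isoforms are not separated.

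The sequence around the start site is given for Igfbp1, Pck1 and Pklr, which passed the test below, and for the FOXO1 target Irs2, as RefSeq has it on build GRCm38.p6. Each run holds 300 bases, 250 before and 50 after the start site, written 5′ to 3′ on the strand of the gene. The regions are chr11:7197537-7197836 on the plus strand for Igfbp1, chr2:173152823-173153122 on the plus strand for Pck1, chr3:89136373-89136672 on the plus strand for Pklr and chr8:11008880-11009179 on the minus strand for Irs2. Capitals mark matches, on either strand, to TTGTTTT, the core of the insulin response sequence, to TGACG, the short core of the cAMP response element, or to the E-box CACGTG.
Igfbp1: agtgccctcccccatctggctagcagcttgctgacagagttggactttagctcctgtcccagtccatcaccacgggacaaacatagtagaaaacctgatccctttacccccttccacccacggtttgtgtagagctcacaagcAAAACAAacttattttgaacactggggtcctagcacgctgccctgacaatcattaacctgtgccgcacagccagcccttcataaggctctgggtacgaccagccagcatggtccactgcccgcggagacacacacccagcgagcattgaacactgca
Pck1: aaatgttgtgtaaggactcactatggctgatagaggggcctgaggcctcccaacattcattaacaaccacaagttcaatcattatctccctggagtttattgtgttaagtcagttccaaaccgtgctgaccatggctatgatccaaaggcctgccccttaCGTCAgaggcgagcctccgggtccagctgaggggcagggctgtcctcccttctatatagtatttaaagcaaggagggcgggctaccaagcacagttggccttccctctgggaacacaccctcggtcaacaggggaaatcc
Pklr: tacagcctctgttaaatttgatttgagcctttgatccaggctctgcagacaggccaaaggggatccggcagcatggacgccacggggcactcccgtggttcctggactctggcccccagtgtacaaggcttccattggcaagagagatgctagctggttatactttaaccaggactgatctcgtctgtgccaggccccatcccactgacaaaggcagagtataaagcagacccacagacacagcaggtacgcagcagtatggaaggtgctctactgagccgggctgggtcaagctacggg
Irs2: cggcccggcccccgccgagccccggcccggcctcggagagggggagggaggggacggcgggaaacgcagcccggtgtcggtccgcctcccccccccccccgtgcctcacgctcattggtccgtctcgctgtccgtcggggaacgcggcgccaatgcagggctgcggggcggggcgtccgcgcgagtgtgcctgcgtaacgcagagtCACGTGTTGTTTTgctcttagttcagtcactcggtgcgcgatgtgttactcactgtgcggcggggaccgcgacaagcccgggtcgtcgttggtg
The Igfbp1 region held TTGTTTT on the opposite strand, from −107 to −101 relative to the start site. The Pck1 region held TGACG on the opposite strand, from −90 to −86. In the Irs2 region CACGTG from −44 to −39 was followed at once by TTGTTTT from −38 to −32. This RefSeq region lies wholly upstream of Irs2 as counted, which begins at 11008458 on the minus strand, so these positions hold for the RefSeq start site only. RefSeq lists a pair of start sites for Pklr, and the downstream one is shown, since the liver form of the enzyme is known to start there and the red-cell form upstream. None of the letters searched, which also included the FOXO core TGTTTAC and TGACGTC, was present in that window. Only exact matches were searched, so elements that differ from these letters were not looked for. Promoters were listed for 8 of the 9 genes. The same search found all 3 of the marked motifs also in Irs1, where TGACG overlaps the E-box, and TGACG in Ppargc1a. It found no match in Fbp1 or in Foxo1, which also passed the test below and is not shown. Of all 32851 promoters in the table, 9.02% held TTGTTTT, 20.8% TGACG, 7.15% CACGTG, 3.65% TGTTTAC and 3.21% TGACGTC, so that such matches are common and describe the sequence only.

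In livers of the UCMSC-Exos group the mRNAs of 2 genes that insulin holds down, Pck1 and Igfbp1, were higher, as was that of Foxo1, while Pklr was lower. Pck1 averaged 2869 CPM ± 665 (SD, n = 8) in UCMSC-Exos and 1441 CPM ± 219 (SD, n = 9) in untreated HFD. Here CPM is the read count of a gene scaled by its library's total after TMM adjustment, not by the raw total. TMM adjustment multiplies each total by a factor that edgeR estimates for that library. Ranges and overlaps in CPM therefore rest on these factors. Igfbp1 averaged 148 ± 82.4 CPM in UCMSC-Exos and 57.1 ± 18 CPM in untreated HFD. Foxo1 averaged 71.6 ± 13.8 CPM in UCMSC-Exos and 49.2 ± 6.27 CPM in untreated HFD, and Pklr 206 ± 42.6 CPM in UCMSC-Exos and 302 ± 50.3 CPM in untreated HFD. The receptor, both adaptors, Ppargc1a and Fbp1 did not pass the test. Of the 9 genes 3 were higher and 1 was lower at an adjusted p of 0.05 in edgeR's quasi-likelihood test, where 9.73% of all tested genes were higher and 10.4% lower, 20.2% in all. The 9 genes were chosen with earlier results of these data known, so their counts only describe them. In none of the 9 were the groups free of overlap, against 1.3% of all tested genes (0.493% higher and 0.807% lower). In bulk liver, fewer cells of a type and less RNA per cell cannot be told apart.

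**Figure D1:**
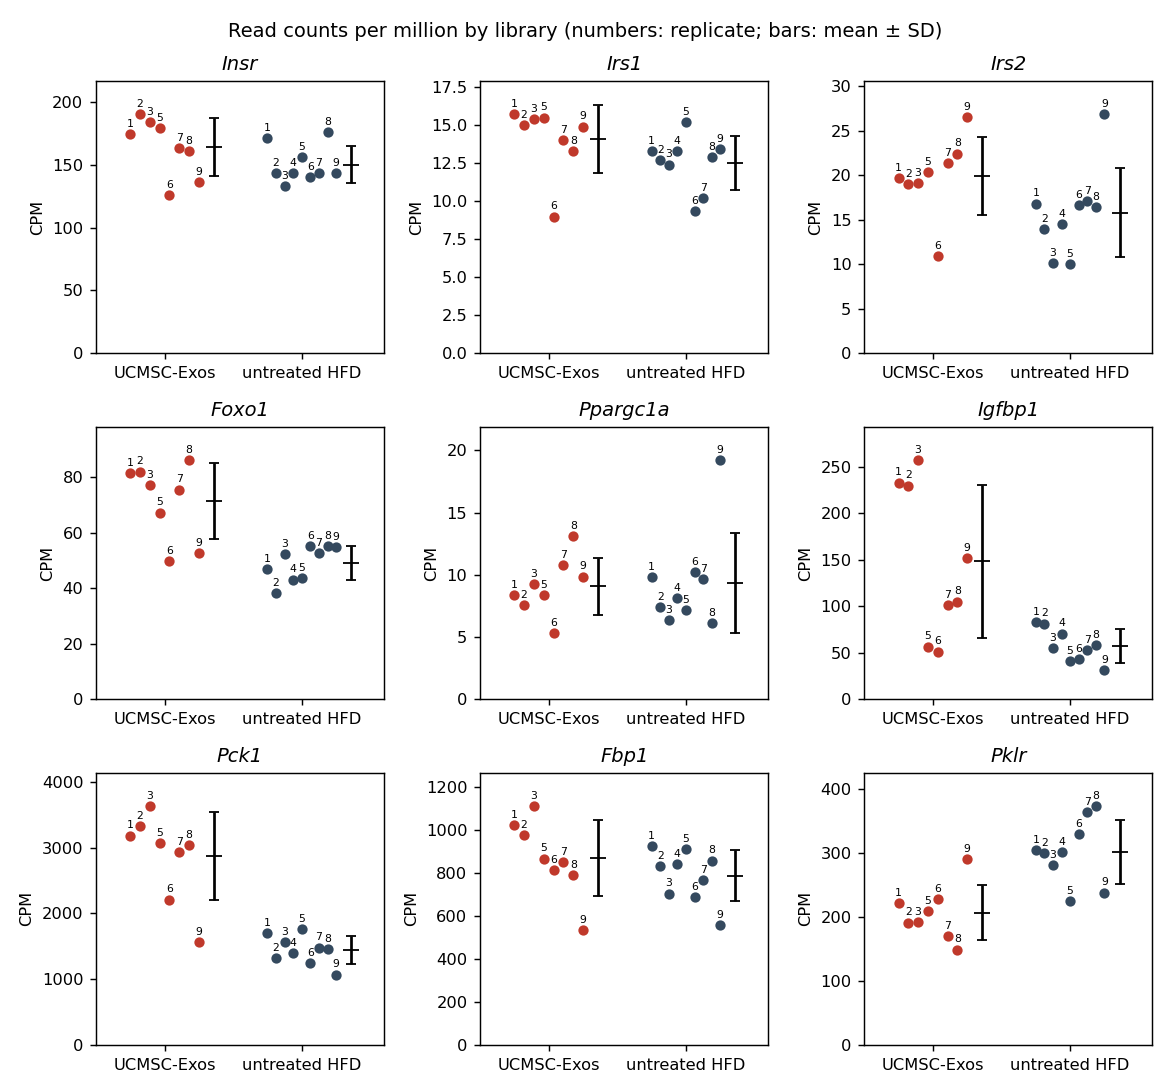
Level in CPM (y axis, from 0) of the 9 genes in each UCMSC-Exos library (red, left) and each untreated HFD library (dark, right). Numbers are replicate numbers and bars show the mean ± SD. Pck1 in UCMSC-Exos averaged 2869 CPM, against 1441 CPM in untreated HFD, and UCMSC-Exos 6 and 9 lie closest to the untreated libraries.

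A few libraries stood apart. Total counts ran from 32941467 to 36065074 reads per library. UCMSC-Exos 9 lay at −49.6 on the first principal component of log2 CPM, within the untreated HFD range of −51.7 to −2.2, while the other UCMSC-Exos libraries lay between 30.6 and 63.2. Untreated HFD 9 held skeletal muscle transcripts, with 12055 CPM summed over 10 markers, against 0.787 to 2.61 CPM in UCMSC-Exos and 0.708 to 1.41 CPM in the other untreated libraries. Untreated HFD 3 held 12502 CPM over 10 markers of pancreatic acinar cells, against 0.118 to 0.676 CPM in UCMSC-Exos and at most 0.89 CPM in the rest of the untreated group. The 10 hepatocyte markers, led by albumin, were present in every library. They summed to 46094 CPM in UCMSC-Exos 9 and to 59555 to 81580 CPM in the other treated libraries. In untreated HFD they summed to 39277 to 59097 CPM, below every treated library but UCMSC-Exos 9. Among these markers 9 rose and Cyp3a11 alone fell, and their median log2 fold change was 0.61, against −0.02 over all genes tested. With surrogate variables, terms estimated from the data for unlabelled differences between libraries, 1 of the 10 was higher and none was lower, at a median of 0.24. The 13 mitochondrially encoded genes summed to 26805 CPM in UCMSC-Exos 9 and 41029 to 48559 CPM in the other treated libraries. In untreated HFD they summed to 2953 CPM in library 3, 61399 CPM in library 9 and 28247 to 38052 CPM in the rest. Of 10 monocyte and macrophage markers 2 fell and none rose, at a median of −0.34. Without UCMSC-Exos 9, in which they summed to 1432 CPM against 887 to 1158 CPM in the other treated libraries, 6 fell, at a median of −0.66. The part of these differences in the results below was not tested. Of 10 adipocyte markers 6 passed the filter on low counts. Car3 and Adrb3 rose, Fabp4 and Slc2a4 fell, and Cfd and Cidea did not pass. Both falls were lost without UCMSC-Exos 2 or without UCMSC-Exos 3. Both genes were highest in untreated HFD 9, the library with muscle transcripts. Fabp4 held 71.7 CPM there and Slc2a4 82.3 CPM, against untreated medians of 23.8 and 3.3 CPM. Without untreated HFD 3 and 9 Fabp4 did not pass, at −0.42 (edgeR adjusted p = 0.0629). Slc2a4 went from −2.84 to −0.99 (edgeR adjusted p = 0.001). The other 4, Adipoq, Plin1, Lep and Retn, reached at most 0.676 CPM in UCMSC-Exos and 3.39 CPM in untreated HFD.

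The receptor and its adaptors did not pass. Insr, the receptor itself, ranged from 126 to 189.9 CPM in UCMSC-Exos, with a median of 169, and from 133 to 176 CPM in untreated HFD, with a median of 143. The groups overlapped, and the log2 fold change was 0.13 (95% interval −0.05 to 0.31; edgeR adjusted p = 0.279). Irs1, the adaptor that muscle and fat rely on most, ran from 8.99 to 15.7 CPM in UCMSC-Exos, median 15, and from 9.34 to 15.2 CPM in untreated HFD, median 12.9. Its log2 fold change was 0.17 (−0.06 to 0.40; edgeR adjusted p = 0.273). One treated library, UCMSC-Exos 6, was below all others. The Irs1 exons share 2822 bases, 30.9% of their length, with the antisense gene model Gm9747, which had no counts in any library. Because the counting used no strand, reads in that stretch cannot be assigned to one gene.

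Irs2, the adaptor whose transcription fasting raises in liver, ran from 10.9 to 26.5 CPM in UCMSC-Exos, median 20, and from 10 to 26.8 CPM in untreated HFD, median 16.4. Of the 8 treated libraries 7 lay above the untreated median, yet the highest value of all was in untreated HFD 9, the library with muscle transcripts. The log2 fold change was 0.33 (−0.04 to 0.71; edgeR adjusted p = 0.183). Without untreated HFD 9 it was 0.47 (edgeR adjusted p = 0.042), and without UCMSC-Exos 9 it was 0.26 (adjusted p = 0.268). With 3 surrogate variables in the model it was 0.59 (edgeR adjusted p = 0.0111). Per kilobase of exon, Irs2 exceeded Irs1 in every UCMSC-Exos library, at ratios of 1.76 to 2.58. In untreated HFD the ratio ran from 0.95 to 2.89, with a single library, untreated HFD 5, below 1. The Irs1 length used here includes the 2822 bases shared with Gm9747, where reads cannot be assigned to either gene. If those reads went uncounted, the ratios are too high, and this was not tested. The Irs2 exons share 162 bases, 2.56% of their length, with the antisense gene model 9530052E02Rik. It reached at most 0.126 CPM in UCMSC-Exos and 0.103 CPM in untreated HFD.

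Foxo1, the transcription factor that insulin keeps out of the nucleus, rose. It ran from 49.7 to 86.2 CPM in UCMSC-Exos, median 76.4, and from 38.3 to 55.2 CPM in untreated HFD, median 52.3. Of the treated libraries 6 lay above every untreated one, and the exceptions were UCMSC-Exos 6 at 49.7 and UCMSC-Exos 9 at 52.7 CPM. The log2 fold change was 0.54 ± 0.11 (SE; edgeR adjusted p = 0.00309), a ratio of means of 1.46. It was 0.58 without untreated HFD 3 and 9 and 0.59 without UCMSC-Exos 9. The call was lost with surrogate variables, at 0.48 (edgeR adjusted p = 0.0923). These are mRNA levels and do not show where the protein is in the cell. The Foxo1 exons share 674 bases, 7.78% of their length, with the antisense gene model Gm20402, which had no counts in any library. Reads in that stretch cannot be assigned to one gene.

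Ppargc1a, the coactivator of mitochondrial and fasting genes, did not pass. It was the lowest of the 9 genes per kilobase in UCMSC-Exos, and ran from 5.3 to 13.1 CPM there, median 8.79. In untreated HFD it ran from 6.14 to 19.2 CPM, median 8.14. The top value was again untreated HFD 9, and skeletal muscle is a tissue known to express this gene. The log2 fold change was −0.04 (−0.48 to 0.40; edgeR adjusted p = 0.904), and without that library it was 0.16 (adjusted p = 0.499).

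Igfbp1, a secreted protein that binds insulin-like growth factors and whose liver transcript is among those most sharply lowered by insulin, had the largest log2 fold change of the 9 genes and, within UCMSC-Exos, the highest coefficient of variation. The treated libraries were uneven. UCMSC-Exos 1, 2 and 3 held 233, 229.7 and 257 CPM, UCMSC-Exos 9 held 152 CPM, and UCMSC-Exos 7 and 8 held 101 and 105 CPM. UCMSC-Exos 5 and 6 held 56.4 and 51.2 CPM, inside the untreated HFD range of 31.1 to 82.6 CPM. The coefficient of variation was 55.6% in UCMSC-Exos and 31.5% in untreated HFD, where that of Ppargc1a was higher at 42.8%. Its log2 fold change was 1.37 ± 0.32 (SE; adjusted p of 0.00757 in edgeR), 2.59 times in the means, and 7 of the 8 UCMSC-Exos libraries exceeded the median of untreated HFD. Unlike Foxo1 and Pck1, it did not place UCMSC-Exos 9 among the untreated libraries. With surrogate variables the log2 fold change was 1.46 and the call was lost (edgeR adjusted p = 0.0964).

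Pck1 encodes the cytosolic phosphoenolpyruvate carboxykinase, which commits oxaloacetate to glucose synthesis. It ran from 1566 to 3630 CPM in UCMSC-Exos, median 3055, and from 1069 to 1761 CPM in untreated HFD, median 1454. All treated libraries but one lay above every untreated library. The exception was UCMSC-Exos 9, which held the 1566 CPM. The next lowest was UCMSC-Exos 6 at 2208 CPM. The summed hepatocyte markers set the same library apart, and their part in the Pck1 result was not tested. The place of UCMSC-Exos 9 rests on the TMM adjustment of its total. It held 66616 Pck1 reads in a raw total of 36065074. Untreated HFD 1, at 1698 CPM, held 59917 in 32944988, a smaller share of the raw total. Pck1 rose by 0.99 ± 0.15 (SE; edgeR adjusted p = 0.000214), 1.99 times in the means. It had the smallest adjusted p of the 9 genes. The log2 fold change was 0.96 without untreated HFD 3 and 9 and 1.08 without UCMSC-Exos 9. It was 0.65 with surrogate variables, where the call held (edgeR adjusted p = 0.0112).

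Fbp1, the fructose-bisphosphatase nearer to glucose in the same pathway, did not pass. It ran from 533 to 1111 CPM in UCMSC-Exos, median 859, and from 556 to 923 CPM in untreated HFD, median 833. The lowest library of each group was its number 9. The log2 fold change was 0.15 (−0.12 to 0.42; edgeR adjusted p = 0.435). The difference between its change and that of Pck1 was not tested.

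Pklr, the last enzyme of glycolysis and the one that works against gluconeogenesis, fell. It ran from 149 to 289.9 CPM in UCMSC-Exos, median 200.5, and from 224 to 373 CPM in untreated HFD, median 301. All 8 treated libraries were below the untreated median and 6 were below every untreated library. UCMSC-Exos 9, at 289.9 CPM, was the highest treated one. Its log2 fold change was −0.55 ± 0.12 (SE; adjusted p of 0.00622 in edgeR), to 0.684 times the untreated mean. Without UCMSC-Exos 9 the log2 fold change was −0.63, and with surrogate variables it was −0.40 and the call was lost (edgeR adjusted p = 0.0759). Its exons share 711 bases, 22% of their length, with Hcn3 on the other strand, an ion channel gene that averaged 10.6 ± 3.99 CPM in UCMSC-Exos and 17.9 ± 4.63 CPM in untreated HFD (log2 fold change −0.76; edgeR adjusted p = 0.0249). Without strand, the reads of the pair in that stretch cannot be told apart.

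**Figure D2:**
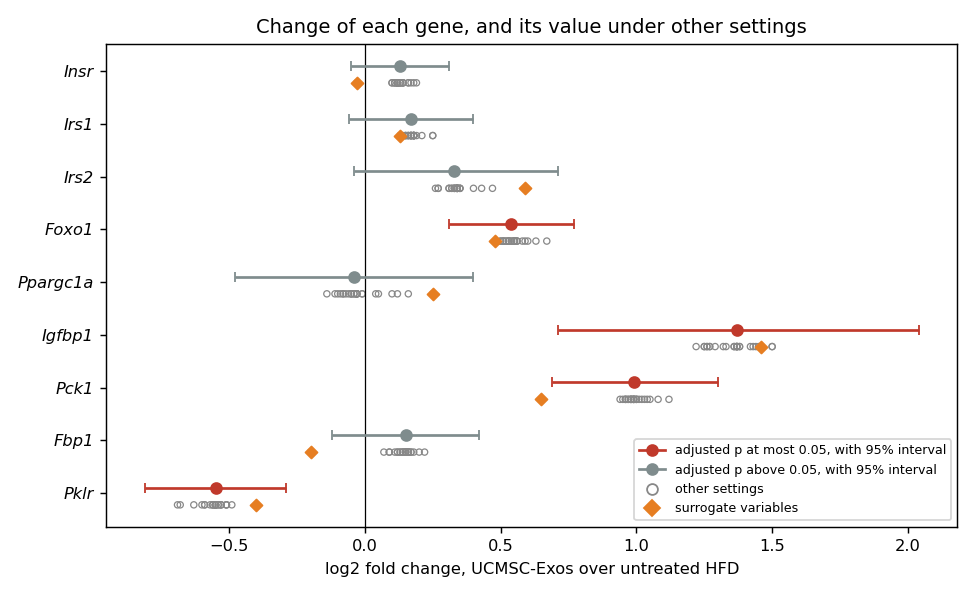
Log2 fold change of each gene, UCMSC-Exos over untreated HFD (x axis), with its 95% interval as a filled point; red marks an adjusted p of at most 0.05. Open circles are the values under the other settings and orange diamonds those with surrogate variables. Igfbp1, at 1.37, has the widest interval of the called genes, and Ppargc1a has values on both sides of 0.

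Pck1 makes phosphoenolpyruvate and pyruvate kinase uses it up, so the levels of the pair were set against each other within each library. The ratio of Pck1 to Pklr per kilobase of exon had a median of 15.1 in UCMSC-Exos, with a range of 5.1 to 19.3. In untreated HFD the median was 4.23 and the range 3.55 to 7.42. UCMSC-Exos 9, at 5.1, was the single treated library inside the untreated range, and UCMSC-Exos 6 followed at 9.15. Within untreated HFD the highest ratio was in library 5, which had both the most Pck1 and the least Pklr of its group. No test was made of this ratio, since both genes were chosen with results known. The Pklr length in it includes the 711 bases shared with Hcn3.

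**Figure D3:**
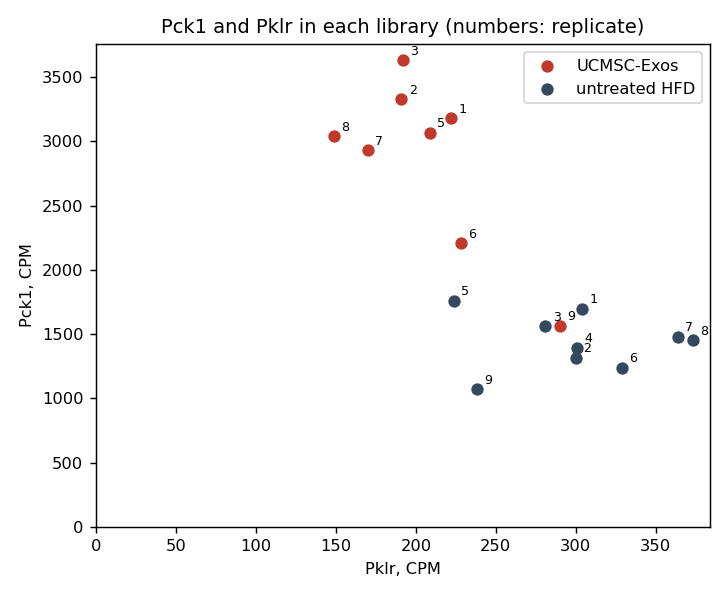
Pck1 (y axis, CPM) against Pklr (x axis, CPM) in each library, both axes from 0, with UCMSC-Exos in red, untreated HFD dark, and replicate numbers beside the points. All UCMSC-Exos libraries but number 9, which lies at 1566 and 289.9 CPM among the untreated ones, sit at the upper left.

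In level per kilobase of exon, Pck1 and Fbp1 led in UCMSC-Exos, at 837 ± 194 and 512 ± 103 CPM per kilobase. In untreated HFD the order of the pair was turned, with Fbp1 at 462 ± 70.1 and Pck1 at 420.3 ± 63.7 CPM per kilobase. Their ranges overlapped in each group. Igfbp1 stood above Pklr in UCMSC-Exos, at 97.2 ± 54 against 63.8 ± 13.2 CPM per kilobase, with overlapping ranges. In untreated HFD Pklr stood above Igfbp1, at 93.2 ± 15.5 against 37.5 ± 11.8 CPM per kilobase, with no overlap. The signalling genes were far lower. Insr stood at 11.9 ± 1.66 CPM per kilobase in UCMSC-Exos and 10.9 ± 1.06 in untreated HFD, and Foxo1 at 8.26 ± 1.59 in UCMSC-Exos and 5.67 ± 0.723 in untreated HFD. Irs2, Irs1 and Ppargc1a each averaged 3.15 CPM per kilobase or less in both groups, and Irs1 and Ppargc1a overlapped in each.

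The libraries differed in how many of the 4 called genes lay outside the untreated range. These genes were called from the same libraries, so such counts are in part built in and only describe each library. In UCMSC-Exos 1, 2, 3, 7 and 8 all 4 called genes lay outside the untreated range in the direction of the change. In UCMSC-Exos 5 it was 3 of the 4, with Igfbp1 the exception. In UCMSC-Exos 6 it was Pck1 alone, and in UCMSC-Exos 9 Igfbp1 alone. UCMSC-Exos 6 also held the lowest treated value of 6 of the 9 genes: Insr, Irs1, Irs2, Foxo1, Ppargc1a and Igfbp1. UCMSC-Exos 9, in contrast, had the highest treated Irs2 and Pklr and the lowest treated Pck1 and Fbp1.

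A set of 5 pairs of genes was compared across the libraries within each group, 10 relations in all, and none passed after Benjamini-Hochberg adjustment. In untreated HFD Irs2 and Pck1 had a Pearson r of −0.72 (exact permutation p = 0.0279, adjusted p = 0.174, n = 9) and a Spearman rho of −0.45 (exact permutation p = 0.23, adjusted p = 0.535). Without untreated HFD 5 and 9, the libraries farthest from the median of Irs2, r was −0.14. Leaving them out also narrows the range of Irs2. In UCMSC-Exos the r of Irs2 and Pck1 was −0.06 (exact permutation p = 0.814, adjusted p = 0.904). Without UCMSC-Exos 6 and 9 it was −0.79 (exact permutation p = 0.0597, adjusted p = 0.597, n = 6). In UCMSC-Exos Pklr and Pck1 had an r of −0.72 (exact permutation p = 0.0482, adjusted p = 0.174, n = 8) and a rho of −0.38 (exact permutation p = 0.36, adjusted p = 0.6). Without UCMSC-Exos 8 and 9 r was −0.45. Over all 17 libraries, with each group centred on its mean, the genes most like Igfbp1 were Abhd2, Acot4 and Fbf1, at r of 0.90, 0.89 and 0.88. Those most like Pck1 were Ces1c, Ngef and Enpep, at 0.94, 0.93 and 0.93. Foxo1 was closest to Rnf169, Atg14 and Ivns1abp at 0.87, 0.85 and 0.84, and Pklr to Arvcf, Sept4 and Kmt2b at 0.87, 0.85 and 0.85. These values are descriptions over libraries that share depth and tissue mixture.

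Other genes of the pathway were read from lists of related genes. The lists were chosen with earlier results of these data known, so high counts in them can be built in. They are given beside the 20.2% of all tested genes that passed. That share was 35.7% without UCMSC-Exos 9 and 5.49% with surrogate variables. Without UCMSC-Exos 1, 2 or 3 it was 13.7%, 12.7% and 12.2%. It ran from 13.8% to 17.9% without UCMSC-Exos 5, 6, 7 or 8, and from 15.8% to 23.5% without an untreated library. List counts with a library removed move in part with these shares. Among 16 other FOXO and fasting targets 7 rose and none fell, at a median log2 fold change of 0.31. Without UCMSC-Exos 9 it was 10 and 1. With all libraries 9 did not pass, among them Pdk4 at −1.95 (edgeR adjusted p = 0.108). Pdk4 held 371 CPM in untreated HFD 9, the library with muscle transcripts, against an untreated median of 14.4 CPM. Sesn1, Txnip, Gadd45a and Pnpla2 also lay below 0, at −0.20, −0.12, −0.21 and −0.10. Klf15, a factor that raises amino acid breakdown for gluconeogenesis, averaged 223 ± 39.5 CPM in UCMSC-Exos and 129.7 ± 14 CPM in untreated HFD (log2 fold change 0.78; edgeR adjusted p = 8.34e-05). Angptl4, an inhibitor of lipoprotein lipase that fasting induces, averaged 147 ± 14.4 CPM in UCMSC-Exos and 103 ± 17.4 CPM in untreated HFD (0.52; edgeR adjusted p = 0.00138). Tat, which starts tyrosine breakdown, and the coactivator gene Cited2 rose by 0.87 and 0.42 (edgeR adjusted p = 0.0046 and 0.00749). With surrogate variables 3 of the 16 were higher and none lower, Klf15 among them at 0.43 (edgeR adjusted p = 0.0024), while Tat stood at 0.21 (adjusted p = 0.545) and Cited2 at 0.23 (adjusted p = 0.216).

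Of 15 other genes of gluconeogenesis 2 rose and none fell, at a median of 0.07. Without UCMSC-Exos 9 it was 4 and 2, without untreated HFD 9 it was 2 and 1, and in 12 of the 17 fits with a library removed 1 rose and none fell. The called genes were Slc37a4, the carrier of glucose 6-phosphate into the endoplasmic reticulum, at 0.43 (edgeR adjusted p = 0.0111), and the mitochondrial aminotransferase gene Got2, at 0.32 (edgeR adjusted p = 0.0397). Got2 passed in only 5 of 17 fits with a library removed, and with surrogate variables none of the 15 passed. Of 21 factors and cofactors that control gluconeogenesis 6 rose and none fell, at a median of 0.13. Without UCMSC-Exos 5 it was 3 and none, and without UCMSC-Exos 9 it was 6 and 1. Hnf4a, a master factor of hepatocyte genes that, like Tat, is also among the hepatocyte markers above, averaged 831 ± 186 CPM in UCMSC-Exos and 521 ± 77.8 CPM in untreated HFD (0.67; edgeR adjusted p = 0.0023). Foxa1, a pioneer factor of liver, rose by 0.50, and Cry2 and Nr0b2, repressors of the clock and of nuclear receptors, rose by 0.36 and 0.54. With surrogate variables none of the 21 passed.

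Glycolytic and glucose-sensing genes went both ways. Of 13 tested genes 3 rose and 3 fell, at a median of 0.13, and with surrogate variables 1 was higher and 1 lower. Mlxipl, which encodes the ChREBP factor that drives Pklr, averaged 321 ± 47.3 CPM in UCMSC-Exos and 202 ± 44.7 CPM in untreated HFD, a rise of 0.67 (edgeR adjusted p = 0.00188), while Pklr fell. Mlxipl stood at 0.36 with surrogate variables (edgeR adjusted p = 0.103). Pfkfb3, an enzyme that raises the glycolytic activator fructose 2,6-bisphosphate, rose by 0.84 (edgeR adjusted p = 0.000299). The hexokinase genes Hk2 and Hk1, which hepatocytes express weakly, changed by −1.7 and −0.5 (edgeR adjusted p = 0.00204 and 0.015). Hk2 averaged 12.2 ± 5.9 CPM in UCMSC-Exos and 39.5 ± 24.7 CPM in untreated HFD, and still passed without untreated HFD 3 and 9 (edgeR adjusted p = 0.00198).

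**Figure D4:**
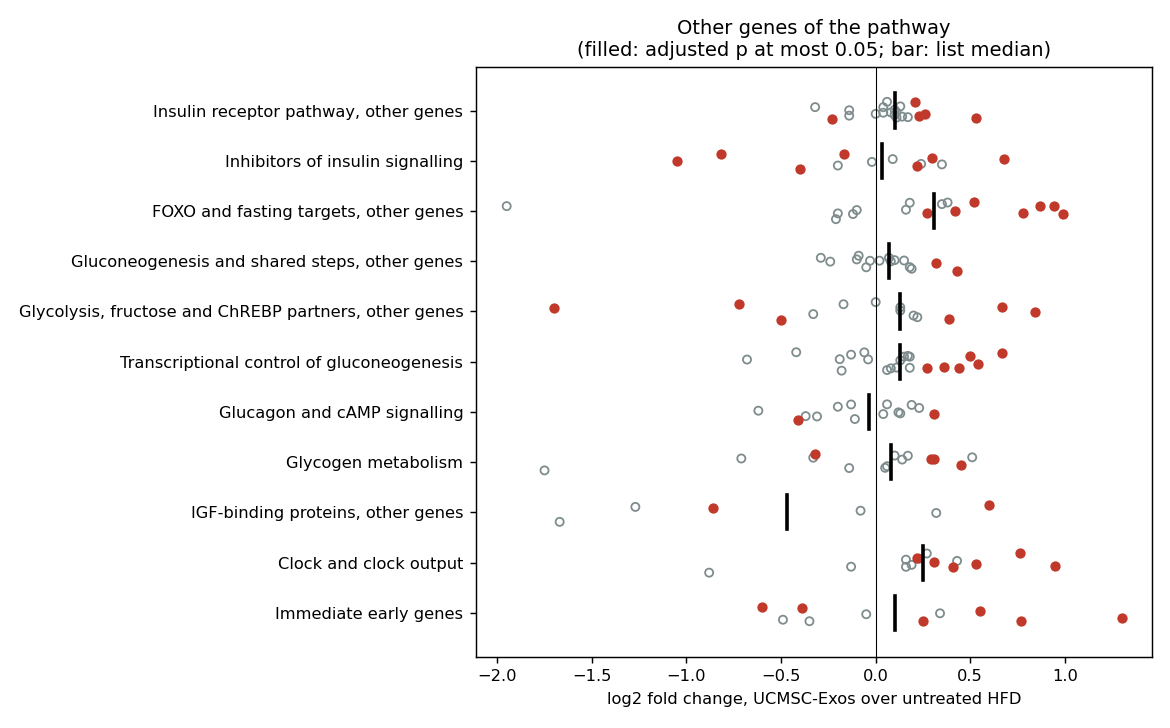
Log2 fold change, UCMSC-Exos over untreated HFD (x axis), of every tested gene in 11 lists of related genes (rows). Filled red points have an adjusted p of at most 0.05, open points do not, and the black bar is the list median. The list of other FOXO and fasting targets has 7 called genes, all to the right of 0, and a median of 0.31.

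Of 20 other genes of the insulin pathway from receptor to FOXO 4 rose and 1 fell, at a median of 0.10, a share near that of all genes. Without UCMSC-Exos 1, 2 or 3, each in turn, 1 rose, where 13.7%, 12.7% and 12.2% of all tested genes passed. Without UCMSC-Exos 5 or 7 or untreated HFD 2 or 6, each in turn, 2 rose, and without UCMSC-Exos 9 the lower count was 2. Foxo3, a relative of Foxo1, averaged 103 ± 26.2 CPM in UCMSC-Exos and 71.7 ± 13.2 CPM in untreated HFD (0.53; edgeR adjusted p = 0.0152). Pik3cb, a catalytic subunit of the lipid kinase upstream of AKT, fell by 0.23 (edgeR adjusted p = 0.0167). Rps6kb1, the S6 kinase, and Sos1, an exchange factor for RAS, rose by 0.26 and 0.21. They passed in 14 and 6 of 17 fits with a library removed, where the highest edgeR adjusted p was 0.0602 and 0.0889. With surrogate variables none of the 20 passed. Of 12 inhibitors of insulin signalling 3 rose and 4 fell, at a median of 0.03. Without UCMSC-Exos 3 the lower count was 2, and with surrogate variables 2 were higher and none was lower. Trib1, a pseudokinase that lowers the factor C/EBPalpha, rose by 0.68 (edgeR adjusted p = 0.000176), and Grb14, which blocks the receptor kinase, by 0.22 (edgeR adjusted p = 0.00838). Phlpp2, a phosphatase of AKT, and Socs1, induced by cytokines, changed by −0.40 and −1.05 (edgeR adjusted p = 0.00627 and 0.0126). With surrogate variables Grb14, Phlpp2 and Socs1 missed the threshold (edgeR adjusted p = 0.167, 0.161 and 0.0903).

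Of 14 genes of glucagon and cAMP signalling 1 rose and 1 fell. Pde3b, a phosphodiesterase through which insulin lowers cAMP, was at 0.31 (edgeR adjusted p = 0.0239), and the adenylyl cyclase gene Adcy6 at −0.41 (edgeR adjusted p = 0.00939). With surrogate variables none of the 14 passed, with Pde3b at 0.13 (edgeR adjusted p = 0.518) and Adcy6 at −0.16 (edgeR adjusted p = 0.269). Without UCMSC-Exos 9 it was 2 higher and 4 lower, without untreated HFD 3 the lower count was 3, and without untreated HFD 5, 7 or 8 it was 2. Without UCMSC-Exos 2 or 3 none was higher. Of 14 glycogen genes 3 rose and 1 fell, and without UCMSC-Exos 2, 3 or 5 or untreated HFD 1 or 2, each in turn, 1 rose. Gys2, the liver glycogen synthase, averaged 172 ± 17.9 CPM in UCMSC-Exos and 126 ± 13.8 CPM in untreated HFD (0.45; edgeR adjusted p = 0.000915), and the branching enzyme gene Gbe1 changed by −0.32 (edgeR adjusted p = 0.0226). Phkg2 and Pygl, for the breakdown of glycogen, rose by 0.31 and 0.29 and passed in 10 and 8 of 17 fits with a library removed. Of the 6 other IGF-binding protein genes Igfbp2 rose by 0.60 (edgeR adjusted p = 0.00238), Igfbp7, which is made outside hepatocytes, fell by 0.86 (edgeR adjusted p = 0.0253), and 4 did not pass. Igfbp7 reached 441 CPM in UCMSC-Exos 9, where the treated median was 157 CPM, and its log2 fold change was −1.15 without that library. It missed the threshold without UCMSC-Exos 2, 3 or 5, each in turn, and with surrogate variables, at −0.15 (edgeR adjusted p = 0.226). A higher count of 2 was found without UCMSC-Exos 9 or untreated HFD 3.

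Genes that follow the time of day and acute stimulation were also counted. Of 14 clock genes 6 rose and none fell, at a median of 0.25, and 8 did not pass, with Nfil3 at 0.95 (edgeR adjusted p = 0.000189), Ciart at 0.76 (edgeR adjusted p = 0.0166) and the output factors Hlf and Tef at 0.53 and 0.31. With surrogate variables 2 of the 14 passed, and without UCMSC-Exos 6 or 9 or untreated HFD 8 or 9, each in turn, 1 fell. Of 10 immediate early genes 4 rose and 2 fell, with Egr1 and Junb at 0.77 and 0.55 and Jun and Dusp1 at −0.60 and −0.39, and 4 did not pass. These genes summed to 457 CPM in UCMSC-Exos 9, against 282 to 351 CPM in the other treated libraries and 292 to 359 CPM in untreated HFD. UCMSC-Exos 9 had the highest treated value of 7 of the 10, Egr1, Junb and Jun among them. Without it 3 were higher and 4 lower, without UCMSC-Exos 2 or 3 it was 2 higher and 2 lower, and with surrogate variables 4 higher and none lower. Pck1 and Ppargc1a are known to vary over the day and with feeding, and the part of either in these results was not tested.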

How the data were processed

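Liver RNA-seq of 17 mice was read from 1 deposited table of raw read counts per gene. Per the file headers, the authors made the counts with featureCounts 2.1.1 over exons of GENCODE vM25, with the paired-end option and none for strand; the submitters' processing notes name fastp 1.3.3, HISAT2 2.2.1, Subread 2.0.2 and mm10. Gene IDs were matched to symbols for 55141 of 55401 genes. There was 1 per-sample column that matched no sample and was not used. Totals ran from 32941467 to 36065074. Exon lengths for CPM per kilobase are those deposited.

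Counts were analysed with edgeR 4.0.16 in R 4.3.3: filterByExpr (minimum count 10), TMM scaling and a robust quasi-likelihood F test, two-sided, UCMSC-Exos over untreated HFD, with Benjamini-Hochberg adjustment over 16238 genes and a threshold of 0.05. The SE is the log2 fold change over the square root of F. A prior count of 2 entered log2 CPM. The steps were tested on simulated counts. There 24 of 67 genes with a log2 change of 0.5 were recovered, 52 of 67 at 1 and 63 of 66 at 2. Of 145 genes called there 6 were false. Small changes are thus often missed, and a gene that did not pass is not shown to be unchanged. The genes, lists and alternatives were chosen with earlier results of these data known. Named genes are the 9, then, per list, at most 4 that passed, by p, or the 2 lowest p if no gene passed, and the 3 most alike to each of the 9. One list gene with a shared symbol, Aldoa, was left out. Alternatives were RLE and upper quartile scaling, other filters, the replicate number as a block, surrogate variables (sva 3.50.0), DESeq2 1.42.0, limma 3.58.1 voom with quality weights, and libraries left out; leaving out untreated HFD 3 and 9 and UCMSC-Exos 9 together was added after the data were seen. The labels do not describe cages or cohorts, so p-values measure the spread between these libraries. Of the 64 pairs of libraries within a group, none agreed within sampling noise.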

Additional observations from a re-analysis of the deposited data

Results flagged for a closer look

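In 3 of 18 groups of values (9 genes in each group of mice) 1 library lay far from the others of its group, by Dixon's test at 95%, which chance gives in about 1 of 20 groups. Irs1 was at 8.99 CPM in UCMSC-Exos 6, where the next treated library held 13.3 CPM. Irs2 was at 26.8 CPM in untreated HFD 9, where the next untreated library held 17.1 CPM. Ppargc1a was at 19.2 CPM in untreated HFD 9, next to 10.2 CPM. Untreated HFD 9 is the library with 12055 CPM of skeletal muscle markers, and the part of those transcripts in its Irs2 and Ppargc1a was not tested.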

How the results depend on the processing

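Of all tested genes 3274 passed; 891 did with surrogate variables, 7711 with limma voom and quality weights, 6716 without untreated HFD 3 and 9 and UCMSC-Exos 9, and between 2005 (without UCMSC-Exos 3) and 5823 (without UCMSC-Exos 9) when 1 library was left out; without UCMSC-Exos 2 it was 2086. Of the 9 genes 4 passed, and 2 did with surrogate variables (Irs2 and Pck1), 7 with voom, and 4 to 5 with 1 library left out. Pck1 passed in every fit run. Foxo1, Igfbp1 and Pklr passed in all but the surrogate variable fit, at 0.48, 1.46 and −0.40 there (adjusted p = 0.0923, 0.0964 and 0.0759). Irs2 passed at 0.59 with surrogate variables, 0.34 with voom and 0.47 without untreated HFD 9. Insr and Irs1 passed with voom only, at 0.19 and 0.25. Direction turned for Insr (−0.03) and Fbp1 (−0.20) with surrogate variables. For Ppargc1a it turned with surrogate variables (0.25), voom (0.05), without untreated HFD 9 (0.16), without UCMSC-Exos 6 (0.04), without untreated HFD 3 and 9 (0.12), and without these and UCMSC-Exos 9 (0.10). The causes were not tested. With 1 library left out, log2 fold changes ran from 0.10 to 0.18 for Insr, 0.13 to 0.25 for Irs1, 0.26 to 0.47 for Irs2, 0.50 to 0.60 for Foxo1, −0.14 to 0.16 for Ppargc1a, 1.22 to 1.5 for Igfbp1, 0.94 to 1.08 for Pck1, 0.09 to 0.22 for Fbp1 and −0.63 to −0.49 for Pklr. Leaving out the 2 libraries farthest from the median turned r to −0.44 for Pck1 and Ppargc1a and to −0.58 for Igfbp1 and Irs2 in UCMSC-Exos, and to 0.20 for Igfbp1 and Irs2 in untreated HFD. With the replicate number as a block 3027 genes passed, and the same 4 of the 9. Same-numbered libraries correlated at −0.17 to 0.24, and in 0 of 8 cases was a treated library closest to its own number. The labels do not say what the numbers mean, and these values cannot exclude a pairing of same-numbered mice. Each of the 9 genes had over 100 reads in every library, and the limit that depth sets was not tested.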
